A study of Mus musculus with 4 samples.

Results

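The genes described here encode hormones and granule proteins of enteroendocrine cells, and 10 were named for the purpose: Gcg, Pyy, Insl5, Cck, Sst, Nts, Sct, Chga, Chgb and Tph1. They were taken by name and not by a filter on their values, though with earlier results of these data known. Every array probe whose accession belongs to 1 of these genes was used. This gave 12 probes of 41174 gene probes, with a second probe for Pyy and for Tph1, and all 10 genes were among the 20821 genes and transcripts that could be tested. The tissue was scraped colonic mucosa from C57BL/6 mice aged 90 days after birth (P90) and 30 days after birth (P30), from which total RNA was taken. The 2 ages shared strain and tissue, and the labels name no treatment or genetic change. Each of 4 two-colour arrays, called a, b, e and k as in the labels, held 1 P90 RNA and 1 P30 RNA. The P90 RNA carried the dye Cy5 on array e and Cy3 on the others. The labels describe the pairs as independent but do not say that each animal was used once, so p-values reflect how these 4 pairs scatter, which may be partly technical.

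Enteroendocrine cells are scattered single cells of the gut epithelium that sense the contents of the lumen and release hormones from their basal side. In the colon the main kinds are the L cells, which make glucagon-like peptides from Gcg, peptide YY and insulin-like peptide 5, and the enterochromaffin cells, which make serotonin by way of Tph1. Both kinds pack their products into dense-core granules with chromogranins and use prohormone-processing enzymes.

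Between 55.6% and 69.3% of gene spots were well above background in the P90 channel, and between 64.6% and 71.0% in the P30 channel. Array b ran against the others: over all probes its log2 P90/P30 correlated with that of array a at r = -0.303, of array e at -0.27 and of array k at -0.17, while the other pairs lay between 0.30 and 0.58 (these are correlations across probes, which are not independent replicates). The labelled direction of array b was kept because the labels state its dyes. Epithelial markers were present: all 10 of 10 were tested, and several, such as Krt8 and Krt18, had saturated spots at both ages throughout and so have no ratio. Cdx2, Epcam and Cdx1, named because none of their spots were saturated, were at -0.40 ± 0.33, -0.34 ± 0.36 and 0.24 ± 0.74 (SD, n = 4). Cdx2 lay below 0 on all 4 arrays, as did 7.97% of all genes. The part of epithelial content in the hormone values was not tested. All 12 probes of the enteroendocrine genes were well above background in both channels on all 4 arrays.

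Proximal promoters are shown because genes with like ratios can then be set beside the sequence before their starts. The sequences are the 100 bases before the annotated transcription start from RefSeq, assembly GRCm38.p6, each read 5′ to 3′ on the strand of the gene, with the upstream start where 2 are listed. All 10 genes were matched by symbol, but the windows of Nts and Sct are not printed. Capitals mark TGACG, the core of the cyclic AMP response element (in full TGACGTCA, which holds TGACG on both strands), and TATAA, the core of the box that places many start sites, each in either orientation.
Chga (chr12:102554841-102554940, plus strand): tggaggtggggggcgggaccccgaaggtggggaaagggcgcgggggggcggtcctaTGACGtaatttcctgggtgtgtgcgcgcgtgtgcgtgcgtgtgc
Tph1 (chr7:46672538-46672637, minus strand): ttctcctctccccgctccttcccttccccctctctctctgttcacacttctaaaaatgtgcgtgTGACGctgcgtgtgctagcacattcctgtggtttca
Chgb (chr2:132781542-132781641, plus strand): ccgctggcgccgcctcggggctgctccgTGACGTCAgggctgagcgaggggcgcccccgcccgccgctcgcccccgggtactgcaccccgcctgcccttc
Sst (chr16:23890845-23890944, minus strand): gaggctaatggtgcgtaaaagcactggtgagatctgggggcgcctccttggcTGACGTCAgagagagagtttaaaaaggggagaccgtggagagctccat
Cck (chr9:121495695-121495794, minus strand): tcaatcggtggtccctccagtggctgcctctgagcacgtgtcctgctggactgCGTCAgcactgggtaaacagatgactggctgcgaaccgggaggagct
Gcg (chr2:62483654-62483753, minus strand): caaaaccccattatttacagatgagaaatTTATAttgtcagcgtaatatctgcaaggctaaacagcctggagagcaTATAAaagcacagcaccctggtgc
Pyy (chr11:102107833-102107932, minus strand): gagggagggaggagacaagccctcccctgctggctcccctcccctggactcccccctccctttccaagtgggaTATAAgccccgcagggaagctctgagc
Insl5 (chr4:103027272-103027371, minus strand): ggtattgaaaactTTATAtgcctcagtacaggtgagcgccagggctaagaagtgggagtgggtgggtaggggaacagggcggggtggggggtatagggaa

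TGACG was found in the 100 bases before a start of 5 genes, Cck, Sst, Chga, Chgb and Tph1, and in 3442 of all 32851 such windows in the table. The full TGACGTCA occurred in Sst and Chgb, which is 2 of the 13 windows, and in 379 (1.15%) of all windows. TATAA occurred before a start of Gcg, Pyy, Insl5, Sct and Tph1 (for Tph1 before its downstream start only). That is 7 of the 13 windows, against 3345 (10.2%) of all windows. The 2 windows of Pyy overlap and share 1 TATAA, which is counted in both, so the windows are not independent. In Chga the outer end of TGACG lay 44 bases before the start, in Tph1 36 bases and in Cck 47 bases. Nts held no exact match to either motif in this window and had TGACG farther upstream, within 250 bases, where 17.8% of windows hold it. Its window did hold the similar strings tgacatca and tatatata, which the search did not count. These are letter matches and say nothing of what binds there.

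For no enteroendocrine gene did the difference between P90 and P30 exceed the spread of the arrays, and none moved the same way on all 4 arrays. The serotonin enzyme gene Tph1 and the granin gene Chga had mean folds of P90 over P30 of 1.55 and 1.64 and lay above 0 on 3 of 4 arrays. The proglucagon gene Gcg had a mean fold of 0.657 and lay below 0 on 3 of 4 arrays. The other 7 genes had mean log2 P90/P30 values between -0.58 and 0.15. With limma and Benjamini-Hochberg adjustment over all genes, 0 of the 10 passed the threshold of 0.05, where the share of all genes that passed was 0% (smallest adjusted p = 0.627 among the 10, for Tph1, and 0.616 over all genes). At an unadjusted p under 0.05 there were also 0 of the 10, against 7.91% of all genes (2.59% higher and 5.31% lower at P90). Not 1 of the 10 had the same direction on every array, while 14.1% of all genes did (6.15% above 0 and 7.97% below 0). With 4 arrays a sign-flip permutation test cannot go below p = 0.125. In bulk mucosa fewer cells of a kind and less RNA per cell cannot be told apart, which holds for every value below.

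The mean was above 0 for 4 genes and below 0 for 6, where 45.6% of all genes had a mean above 0 and 54.4% below. The median of the 10 means was -0.19, beside -0.02 over all genes tested. The spread between arrays was wide. The standard deviation of the log2 ratio over arrays was above 0.5 for each of the 10 genes, from 0.52 for Sst to 1.70 for Nts, and above 0.5 for 28.9% of all genes. Its median was 0.811 over the 10 genes, against 0.349 over all genes and 0.379 over the 2083 brightest genes. On array a 7 of the 10 genes lay below 0 (median -0.44), on array b 5 (median 0.37), on array e 4 (median 0.055) and on array k 1 (median 0.42). Arrays a and b gave opposite signs for 8 of the 10, and for 61.3% of all genes. The limit of 0.5 and the count of opposite signs were chosen after the values were seen.

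**Figure D1:**
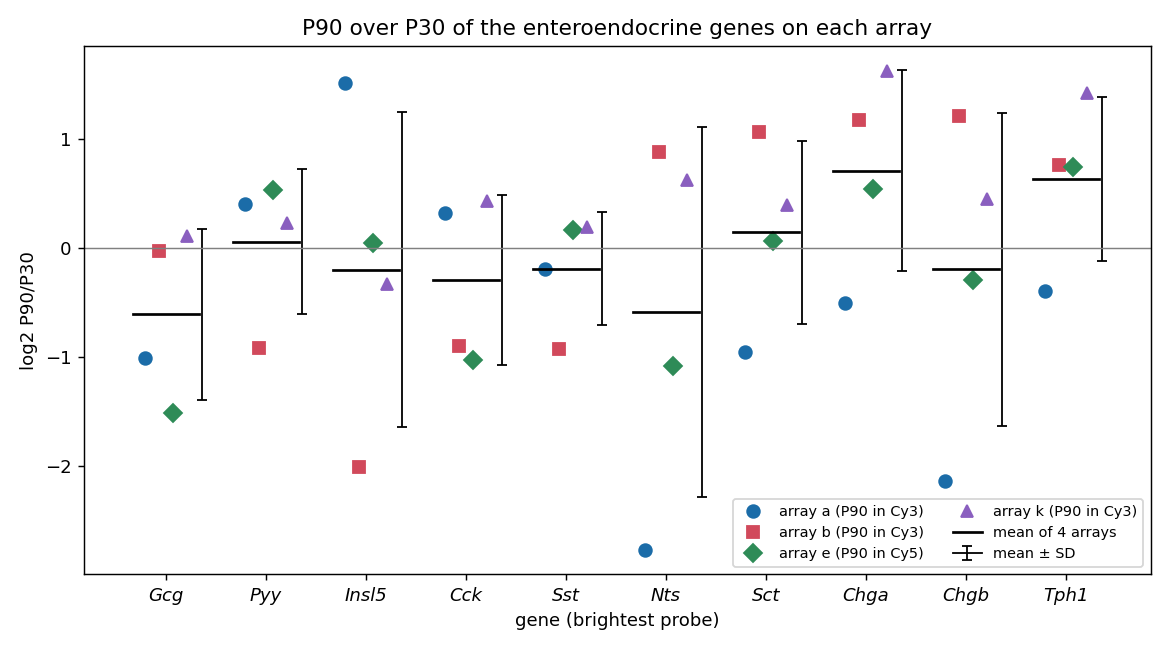
The vertical axis is log2 P90/P30 and the horizontal axis names the 10 genes, 1 marker per array, with the mean as a bar and the standard deviation (n = 4) at its right. Every gene has arrays on both sides of 0, and Nts runs from -2.77 on array a to 0.88 on array b.

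Tph1 encodes the rate-limiting enzyme of serotonin synthesis outside the nervous system. Its log2 signal, which includes the offset of 50, was 11.41, 12.42, 12.21 and 13.04 in the P90 channel of arrays a, b, e and k, against 11.80, 11.66, 11.47 and 11.62 in the P30 channel. P90 was above all 4 P30 values on arrays b, e and k and below them on array a. The log2 P90/P30 was -0.39, 0.76, 0.75 and 1.42 in the same order, a mean of 0.64 ± 0.75 (SD, n = 4; limma adjusted p = 0.627). The 95% interval of the fold ran from 0.937 to 2.58. The second Tph1 probe gave -0.11, 0.96, 0.33 and 1.69, with the same signs and a mean of 0.72 ± 0.78.

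Chga encodes chromogranin A, the granule protein used most widely to mark endocrine cells. Its log2 signal was 13.63, 15.03, 14.30 and 15.49 at P90 on arrays a, b, e and k, against 14.13, 13.86, 13.76 and 13.86 at P30. As with Tph1, P90 exceeded every P30 value on arrays b, e and k and fell short of them on array a. The log2 P90/P30 was -0.50, 1.18, 0.54 and 1.63, with a mean of 0.71 ± 0.92 (SD, n = 4; limma adjusted p = 0.634) and a 95% interval of the fold from 0.895 to 2.998. Without array a the mean was 1.12, and without array k it was 0.41. The 4 ratios of Chga and Tph1 were the closest of all 45 pairs among the 10 genes, at a root mean square distance of 0.26 on the log2 scale. Among all tested genes with a symbol, Tph1 was the nearest to Chga, followed by Cpb2 at 0.28. Nearer to Tph1 than Chga were Cd8a at 0.197, Grasp at 0.199 and Cpb2 at 0.203, named for these distances. The closeness was therefore not particular to the 10 genes. Their P90 signals varied far more than their P30 signals: the standard deviation over arrays was 0.82 at P90 and 0.16 at P30 for Chga, and 0.67 at P90 and 0.14 at P30 for Tph1.

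A wider spread of the signal at P90 than at P30 was found for 8 of the 10 genes, all except Gcg and Cck, and for 57.7% of all genes. The standard deviations were 1.25 at P90 and 0.41 at P30 for Insl5, and 1.38 at P90 and 0.49 at P30 for Nts. Over all genes the median standard deviation was 0.30 at P90 and 0.28 at P30. The count of 8 was made after the values were seen, and whether it differs from the share of all genes was not tested. Saturation capped the highest P30 signals of Chgb (array a) and Sct (array k), so their P30 standard deviations (0.57 and 0.45) are likely understated. The highest P90 signal of Pyy, on array e, was capped too, which works the other way. Dye was not separated from age in this count, since array e alone had its dyes exchanged.

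**Figure D2:**
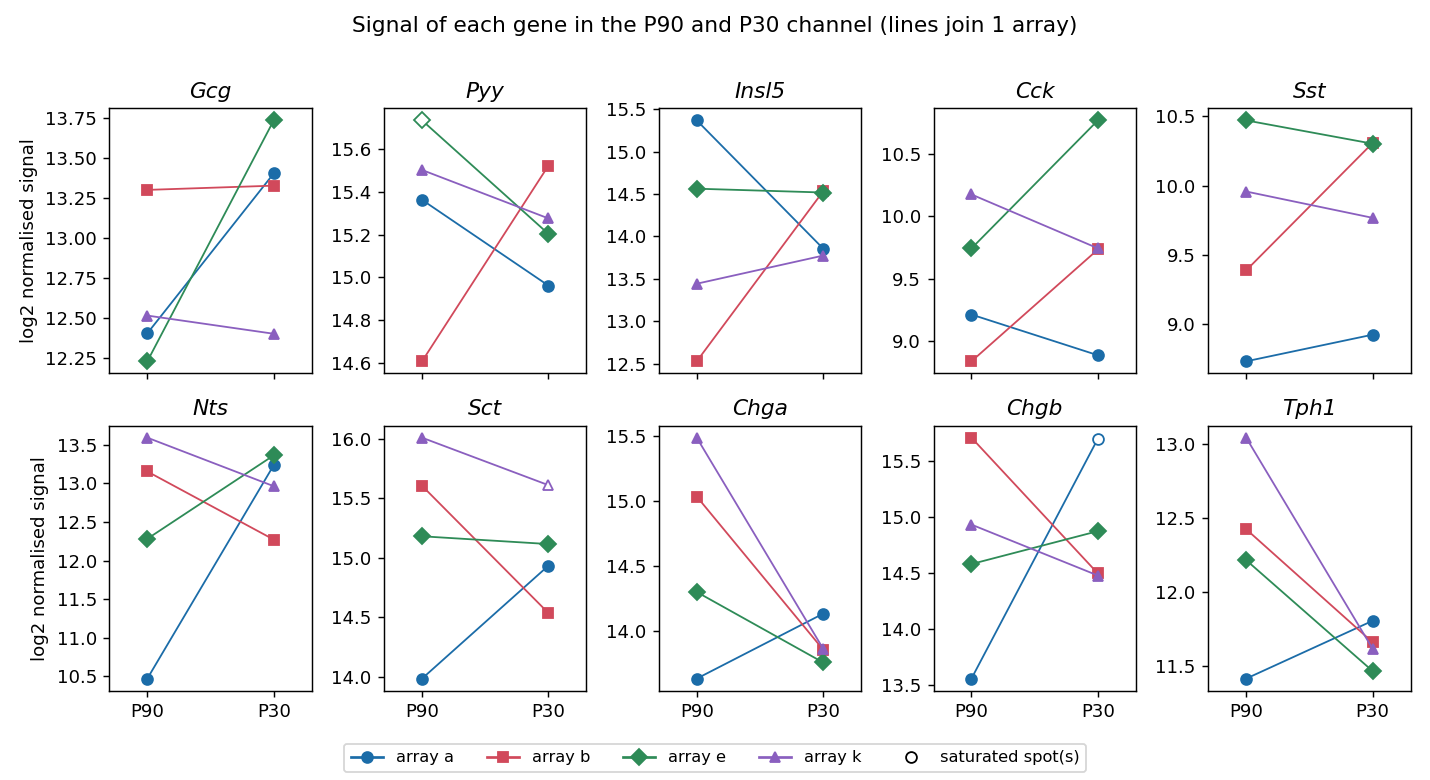
Each panel is 1 gene, with the log2 normalised signal in the P90 channel at the left and in the P30 channel at the right, a line joining the channels of 1 array, and open markers where a spot was saturated. For Chga and Tph1 the P30 points lie close together while the P90 points spread, with array k highest and array a lowest; vertical axes differ between panels.

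Among the hormones of L cells, Gcg, which encodes the precursor of the glucagon-like peptides, had log2 signals of 12.40, 13.30, 12.23 and 12.51 at P90 on arrays a, b, e and k, against 13.40, 13.33, 13.74 and 12.40 at P30. P90 was lower by a wide margin on arrays a and e, and the channels were nearly level on b and k. The log2 P90/P30 was -1.002, -0.027, -1.51 and 0.11, with a mean of -0.61 ± 0.78 (SD, n = 4; limma adjusted p = 0.642) and a 95% interval of the fold from 0.390 to 1.11. Without array e the mean was -0.30, and without array k it was -0.85.

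Insl5, an insulin-related peptide of the distal gut that acts through the receptor encoded by Rxfp4, had log2 signals of 15.37, 12.53, 14.56 and 13.44 at P90 on arrays a, b, e and k, against 13.86, 14.53, 14.52 and 13.77 at P30. It had the highest ratio of the 10 genes on array a, at 1.51, and the lowest on array b, at -2.005. With 0.045 on array e and -0.33 on array k, the mean was -0.19 ± 1.44 (SD, n = 4; limma adjusted p = 0.958). Array b decided its sign, since the mean without that array was 0.41. Rxfp4 itself was dim, with a log2 P90/P30 of 0.14 ± 0.25; it is named because it pairs with Insl5.

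Pyy, the precursor of peptide YY, which slows gut transit and curbs appetite, had log2 signals of 15.36, 14.61, 15.74 and 15.50 at P90 on arrays a, b, e and k, against 14.96, 15.52, 15.20 and 15.28 at P30. P90 was the lower channel on array b alone. The ratios of 0.40, -0.92, 0.53 and 0.23 gave a mean of 0.061 ± 0.66 (SD, n = 4; limma adjusted p = 0.978). The P90 spot was saturated on array e, so the ratio there is a lower bound. The second Pyy probe had no saturated spot and gave 0.72, -1.14, 0.54 and 0.49, the same signs, with a mean of 0.15 ± 0.87.

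Of the other peptide hormones, Nts, which encodes neurotensin, varied widely between arrays. Its log2 signal was 10.47, 13.15, 12.28 and 13.59 at P90 on arrays a, b, e and k, against 13.24, 12.27, 13.36 and 12.96 at P30. The P90 channel of array a stood well below the other 7 values. The ratios were -2.77, 0.88, -1.08 and 0.63, with a mean of -0.58 ± 1.70 (SD, n = 4; limma adjusted p = 0.846), and without array a the mean was 0.14.

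Sct encodes secretin, a stimulus of bicarbonate secretion. Its log2 signal was 13.98, 15.60, 15.18 and 16.01 at P90 on arrays a, b, e and k, against 14.93, 14.53, 15.11 and 15.61 at P30, so that P90 was the lower channel on array a alone. The ratios were -0.95, 1.07, 0.065 and 0.40, with a mean of 0.15 ± 0.84 (SD, n = 4; limma adjusted p = 0.946). The P30 spot was saturated on array k, so the ratio there is an upper bound, and without array b the mean was -0.16.

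Cck encodes the precursor of cholecystokinin, which drives gallbladder contraction and satiety. Its log2 signal was 9.21, 8.84, 9.74 and 10.17 at P90 on arrays a, b, e and k, against 8.89, 9.73, 10.77 and 9.74 at P30. The ratios of 0.33, -0.90, -1.03 and 0.43 fell into a pair above 0 and a pair below, with a mean of -0.29 ± 0.78 (SD, n = 4; limma adjusted p = 0.843). Sst encodes somatostatin, which inhibits the release of most other gut hormones. Its log2 signal was 8.73, 9.39, 10.47 and 9.96 at P90 on arrays a, b, e and k, against 8.92, 10.31, 10.30 and 9.77 at P30. Both channels were lowest on array a. The ratios of -0.19, -0.92, 0.17 and 0.19 gave a mean of -0.19 ± 0.52 (SD, n = 4; limma adjusted p = 0.862), and 0.055 without array b. The P90 and P30 signals overlapped for each of the 10 genes.

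The granins Chga and Chgb had the same sign on arrays a, b and k and opposite signs on array e. Chgb, which encodes chromogranin B, had log2 signals of 13.56, 15.71, 14.58 and 14.93 at P90 on arrays a, b, e and k, against 15.70, 14.50, 14.87 and 14.48 at P30. On array a 9 of the 10 P30 spots of this probe were saturated, so its fall on that array is understated. The ratios of -2.14, 1.21, -0.29 and 0.45 gave a mean of -0.19 ± 1.43 (SD, n = 4; limma adjusted p = 0.958), while Chga had a mean of 0.71. Both granins were lowest on array a; Chgb was highest on array b and Chga on array k. Without array a the mean of Chgb was 0.46.

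The probes of Gcg, Sst and Chgb were printed 10 times on each array, which gives the spot noise within 1 labelling and hybridisation. The standard deviation between spots of 1 array averaged 0.047 for Gcg, 0.045 for Sst and 0.054 for Chgb on the log2 scale. The standard deviation between arrays was 16.8 times as large for Gcg, 11.6 times for Sst and 26.5 times for Chgb. The spread between arrays also holds labelling and hybridisation error, which was not measured apart, and for Chgb it includes the saturated spots of array a.

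**Figure D3:**
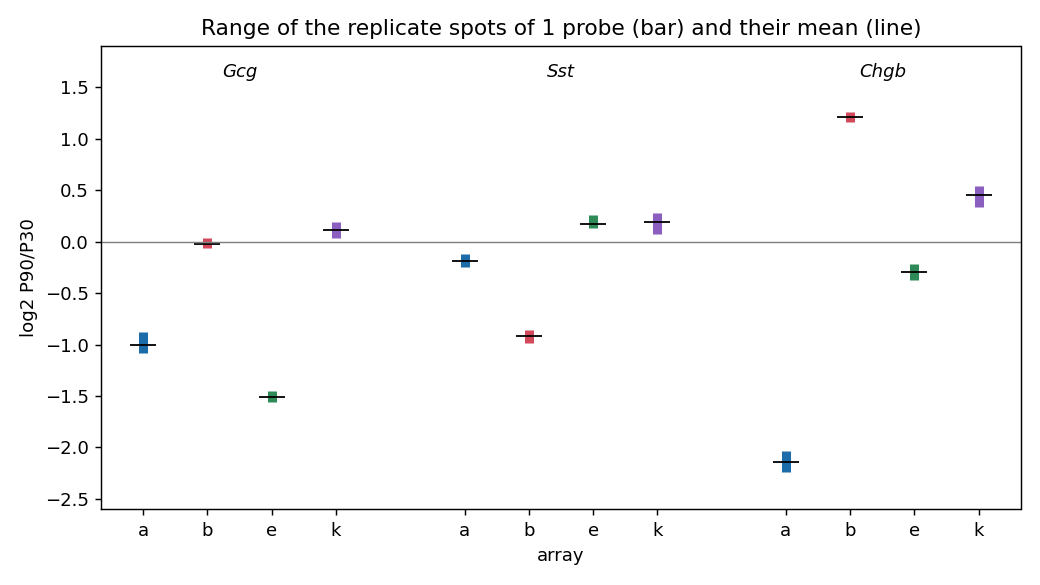
The vertical axis is log2 P90/P30, and each bar spans the replicate spots of 1 probe on 1 array, with a line at their mean, for Gcg, Sst and Chgb. The bars are short beside the distances between arrays, which for Chgb run from -2.14 to 1.21.

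The array order of some of these genes was set beside that of Hox genes of the distal colon. In the order a, e, k, b, Hoxd13 had log2 P90/P30 values of 4.63, 1.57, -2.41 and -4.40, and Hoxb13 had 1.40, 2.16, -0.52 and -2.05. Insl5 had the order of Hoxd13 (a, e, k, b), as did 6.84% of all genes, and the tested Pyy probe had the order of Hoxb13 (e, a, k, b), as did 8.68% of all genes. The second Pyy probe had the order of Hoxd13, and Hoxa13 ran in another order (a, k, e, b). Nts, Sct and Chgb ran in the exact reverse of Hoxd13, as did 9.98% of all genes. Gcg followed neither order. Of 5 listed genes of the distal colon 4 were tested, and their medians in that order were 0.79, 0.84, -0.21 and -1.39. The Hox genes were chosen for this comparison after values were seen, an order over 4 arrays is a description, and their part in the hormone values was not tested.

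**Figure D4:**
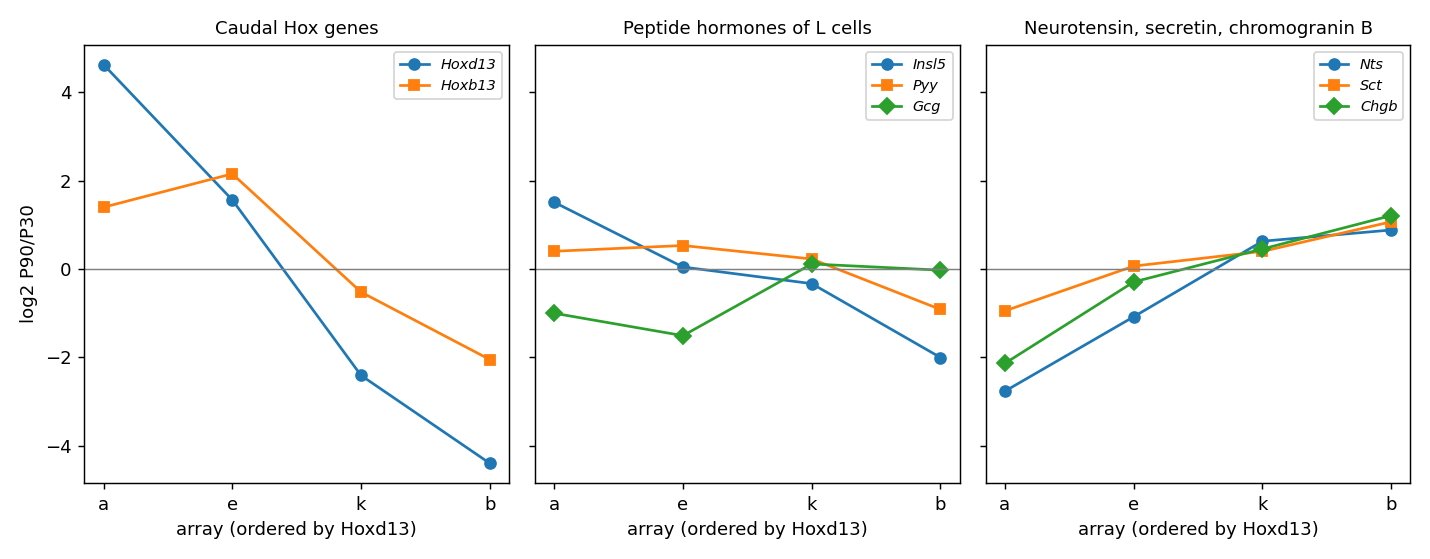
The vertical axis is log2 P90/P30 and the arrays run along the horizontal axis in the order of Hoxd13, with the Hox genes at the left, Insl5, Pyy and Gcg in the middle, and Nts, Sct and Chgb at the right. Insl5 falls along this order as Hoxd13 does, and Nts, Sct and Chgb climb along it.

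Genes that process prohormones and move granules had means above 0 more often than below. Of 20 tested genes of 23 listed, 16 had a mean above 0 and 4 below, with a median of 0.27, where 45.6% of all genes had a mean above 0. None passed the adjusted test. At an unadjusted p under 0.05 there were 6, all higher at P90, and 2.59% of all genes were higher at that level. These 6, named after their values were seen, were Resp18, an endocrine granule protein, at 0.91 ± 0.62 (SD, n = 4), Pcsk1n, an inhibitor of prohormone convertase, at 0.72 ± 0.66, and carboxypeptidase E (Cpe), which trims prohormones, at 0.61 ± 0.38. The others were Scg5, the chaperone of a prohormone convertase, at 0.60 ± 0.51, the vesicle protein gene Syp at 0.44 ± 0.34 and the vesicle fusion gene Vamp2 at 0.42 ± 0.31. All but Vamp2 were above 0 on every array, as was Ptprn. Syp and Ptprn were dim, with mean log2 intensities of 6.63 and 6.81. Syt7, the brightest gene of the list, was at -0.11 ± 0.41, and Pcsk1, the convertase that cuts proglucagon in L cells, named for that role, was at 0.017 ± 1.06 with the array signs of Nts. With median centring of the arrays 1 of the 20 had an unadjusted p under 0.05 and was higher (0.264% of all genes were), 2 were with a dye term (1.76%) or without array k (1.85%), and 3 were without array a (1.32%). With the sign of array b turned 3 were higher, where 7.74% of all genes were, and 1 was lower. Neurons also hold most of these proteins: of 15 listed neuron markers 9 were tested, 6 with a mean above 0, with a median of 0.20 and array medians of 0.32, -0.084, 0.40 and -0.014 on a, b, e and k. Most of these markers were dim, with a median log2 intensity of 6.42, which limits what their ratios show. Stmn3 was at 0.89 ± 0.72 and Tubb3 at -0.0021 ± 1.07. The part of neurons in the granule genes was not tested.

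**Figure D5:**
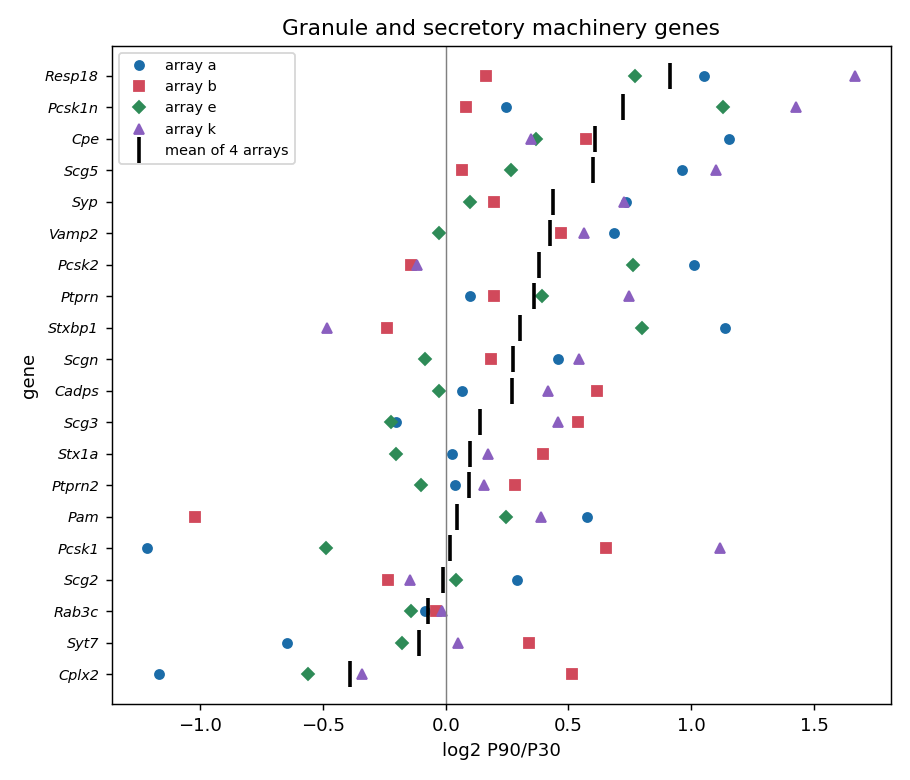
The horizontal axis is log2 P90/P30, with 1 marker per array and a bar at the mean for each of the 20 tested genes of prohormone processing and granules, ordered by mean. The upper 16 genes have means above 0, and Resp18, Pcsk1n, Cpe, Scg5, Syp and Ptprn lie above 0 on every array.

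The genes listed as enteroendocrine transcription factors lay on both sides of 0: 16 of 18 were tested, 9 with means above 0 and 7 below, with a median of 0.016. The brightest were Foxa2, at -0.25 ± 0.41 (SD, n = 4), and Hopx, at -0.27 ± 0.25 and below 0 on all 4 arrays. Their mean log2 intensities were 12.93 and 11.95, against a list median of 7.22. Whether these 2 genes report on enteroendocrine cells was not tested. Neurog3, the factor that commits a progenitor to the endocrine fate, named for that role, was at -0.036 ± 0.44. Of the serotonin genes beside Tph1, 7 of 8 were tested, 3 above 0 and 4 below, with a median of -0.044. Maoa, which degrades serotonin, was at -0.19 ± 0.42 with 2 saturated P30 spots, and Ddc, which makes serotonin from the product of Tph1, was at 0.17 ± 0.38.

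Of genes that sense nutrients in these cells, 15 of 18 were tested, 11 with means above 0, with a median of 0.057. Ffar2, a receptor of short-chain fatty acids, was at -0.47 ± 0.89 (SD, n = 4), and Ffar4, a receptor of long-chain fatty acids, at 0.057 ± 0.51. Of the receptors for the hormones themselves 9 of 20 were tested, 6 above 0, with a median of 0.011; the brightest were Vipr1, at 0.19 ± 0.52, and Glp2r, the receptor of a glucagon-like peptide, at 0.044 ± 0.33. Among these lists no gene passed the adjusted test, and none had an unadjusted p under 0.05.

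Markers of other tissues, some of which hold the same transcripts, were measured beside the hormones. Mast cells also carry Tph1: 4 of 7 mast cell markers were tested, with a median of 0.0091. The brightest were Mcpt1, at -0.57 ± 0.26 (SD, n = 4) and below 0 on every array, and Hdc, at -0.013 ± 0.17. These markers were dim, with a median log2 intensity of 6.32, which limits what their ratios show. Pancreatic tissue also carries Gcg and Sst: 5 of 8 pancreas markers were tested, with a median of 0.11. The brightest were Cela1 at 0.56 ± 1.23 and Ppy at 0.60 ± 1.46, and Ppy is also listed among the other gut hormones. The remaining tested markers, named to complete the list, were Ctrb1 at 0.016 ± 0.39, Ins2 at 0.11 ± 0.21 and Prss2 at -0.12 ± 0.29. Ins2 and Prss2 were dim. Upper gut tissue also carries Cck, Nts and Sct: 7 of 8 small intestinal markers were tested, 6 with means below 0, with a median of -0.52 and array medians of -0.12, 0.0036, -0.12 and -1.03 on a, b, e and k. Fabp2 was at -0.60 ± 0.73, with 2 saturated P30 spots, and Alpi at -0.69 ± 0.53. Adipocyte markers had medians of 0.24, 2.04, 5.46 and 0.57 on the 4 arrays (7 of 8 tested), and smooth muscle markers had 0.31, 0.73, 0.999 and -0.42 (7 of 8 tested). The part of these tissues in the hormone values was not tested.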

How the data were processed

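The deposited scanner files give the linear intensity of each spot and of its local background in both channels as pixel medians, not normalized per the file headers. They also give a log10 ratio of Cy5 to Cy3, which the authors' software took from background-subtracted signals after linear scaling of each dye, per the file headers, and outlier, background and saturation marks (other, no unit) also come from the deposited files. The series' deposited value table holds log2 P90 over P30, found by matching it to that ratio within 0.01 for 80.0% to 87.0% of probes; its column medians were 0.21, -0.17, 0.049 and 0.17 for arrays a, b, e and k, and the authors' normalization of it is not given in the sources used here. Agilent Feature Extraction was used, with version 8.5.1.1 in the submitters' processing notes and 10.5.1.1 in the file headers.

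Here signals were corrected with normexp (offset 50) and normalized by loess within each array (span 0.3, control spots at weight 0) in limma 3.58.1 under R 4.3.3. The median signal stood in for the mean signal of the planned design, which these files lack. Outlier spots were left out, saturated spots were kept, spots of 1 probe were averaged and ratios were turned to log2 P90/P30. Probes well above background on at least 3 arrays in either channel were kept (27051), and the brightest probe stood for its gene. Signals per channel were scaled between arrays with Aquantile after loess. Each mean was tested against 0 with lmFit and eBayes, with Benjamini-Hochberg adjustment over 20821 genes, and the fit was tested on simulated data with 200 changed genes. Of the probes, 25097 were named through RefSeq accessions of GRCm38.p6 and 16077 kept the design's accession. Gene values carry no coordinates because the design's annotation uses another build.

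The enteroendocrine genes and all companion and marker lists were chosen with earlier results of these data known. The text names all 10 genes with every probe, the 2 brightest genes of each companion list and of most marker lists, and the 3 genes nearest to the median profile; other names are said to be added. The 4 arrays limit the precision of every value. They shared 1 slide, so no batch could be tested. The alternatives were 20 settings of background, normalization, filter, probe choice, saturation, dye, array weights, variance, the sign of array b and arrays left out.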

Additional observations from a re-analysis of the deposited data

Results flagged for a closer look

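The second Pyy probe had 1 array far from the rest. Its log2 P90/P30 was 0.72, 0.54 and 0.49 on arrays a, e and k and -1.14 on array b. The gap from array b to the nearest other array made up 0.877 of the whole range, above Dixon's 95% critical value for 4 samples. The Pyy probe used in the test was also lowest on array b, at -0.92, and did not pass that limit. Chance marks about 1 in 20 groups in this way, and 12 probes were looked at.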

How the results depend on the processing

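None of the 10 genes passed the limma test under any of the 20 alternatives (smallest adjusted p = 0.121), and their median stayed between -0.50 and 0.16, within the spread between arrays of 0.40 around the reported value; leaving out each array in turn it ran from -0.23 to 0.045. Over all genes 2 passed, in place of 0, with the normexp offset of 10, with processed signals then loess, with the deposited log ratio and with the series' value table, and leaving out each array in turn gave 0. Of 200 values of single genes, 180 kept their sign and 20 took the opposite sign, none past the test, and the cause was not tested. The 180 include settings in which no sign could turn. Both changes of the filter on dim probes, the fit over all kept probes and the variance trend left every log2 value of these genes as it was. Averaging a gene's probes could alter only Pyy and Tph1. Gcg (-0.97 to -0.30), Chga (0.12 to 1.12) and Tph1 (0.25 to 0.98) kept their sign in all 20. With median centring Pyy was at -0.23 and Sct at -0.16. With saturated spots left out Pyy was at -0.096 and Chgb at 0.46. These equal the mean of Pyy without array e and of Chgb without array a. The setting thus dropped the bounded array and did not correct its ratio. With array weights Insl5 was at 0.18 and Sct at -0.037. With the sign of array b turned Insl5 was at 0.81, Cck at 0.16, Sst at 0.27 and Sct at -0.39. With arrays b and e left out Insl5 was at 0.59, Cck at 0.38 and Sct at -0.27. Leaving out each array in turn, the range was -0.096 to 0.39 for Pyy, -1.07 to 0.14 for Nts, -0.66 to 0.46 for Chgb, -0.76 to 0.41 for Insl5, -0.31 to 0.055 for Sst and -0.16 to 0.51 for Sct. The count of granule genes with a mean above 0 lay between 12 (sign of array b turned) and 17 of 20 in 10 alternatives added after the data were seen. The reported test is itself the paired one, since it sets the 4 ratios within arrays against 0. No further paired analysis was possible because no other block is labelled. Saturation bounds the ratios of Chgb on array a, Pyy on e and Sct on k, and signals near background limit most hormone receptors.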

Other observations

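Of 19 other listed hormones and neuropeptides of the gut, 11 were tested, 9 with a mean above 0 (45.6% of all genes), with a median of 0.19. Their standard deviation over arrays had a median of 0.59, from 0.16 to 1.46, and was above 0.5 for 6 of the 11. None passed the adjusted test or had an unadjusted p under 0.05. Pancreatic polypeptide (Ppy) had log2 P90/P30 values of 2.10, -1.26, 1.32 and 0.23 on arrays a, b, e and k, with a mean of 0.60 ± 1.46 (SD, n = 4). Adrenomedullin (Adm) had 1.26, -0.37, 1.03 and -1.13, with a mean of 0.20 ± 1.14. Further neuropeptides were named after their values were seen: Grp at 1.11 ± 1.37, Penk at 0.75 ± 1.36 and Gal at 0.65 ± 1.03, each high on arrays a and e and lowest on b or k. Grp was dim, with a mean log2 intensity of 6.66.

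Over the 4 arrays the genes nearest to the median profile of the 10 were Ampd3, at a root mean square distance of 0.054 on the log2 scale, Pmm1 at 0.062 and Slc1a5 at 0.072.

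Tuft cells, another rare chemosensory cell of the epithelium, had 7 of 7 markers tested, all with a mean above 0 (45.6% of all genes), with a median of 0.43. None passed the adjusted test, and 3 were higher at an unadjusted p under 0.05, as were 2.59% of all genes. Their brightest genes were Ptgs1, at 0.10 ± 0.97 (SD, n = 4), and Trpm5, at 0.71 ± 0.42 and above 0 on every array.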
